A study of Mus musculus with 12 samples.

Results

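Cyp11a1, Fdx1 and Fdxr encode the mitochondrial system that makes pregnenolone, the precursor of all steroid hormones, from cholesterol. The 3 genes were taken by symbol from a count table of 26214 gene symbols, and all 3 passed the filter on low counts that left 2614 genes to be tested. Cyp11a1 encodes the side-chain cleavage enzyme, a cytochrome P450 of the inner mitochondrial membrane. Fdxr encodes ferredoxin reductase, a flavoprotein that takes electrons from NADPH, and Fdx1 encodes ferredoxin, a small iron-sulfur protein that carries them to the cytochrome. In Leydig cells, the androgen-producing cells of the testis, luteinizing hormone raises this conversion through cAMP, and the nuclear receptor Nr5a1 is a known regulator of Cyp11a1 transcription.

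The libraries came from mLTC-1, an immortalized mouse Leydig tumour cell line, grown in serum-containing medium. Control cells received the vehicle DMSO and treated cells received 100 µM MSNBA, a nitrophenyl benzodioxolamine that the series gives as a blocker of Glut5, a fructose transporter, each for 24 h, and the study is about androgen production under that inhibition. There were 6 control and 6 MSNBA libraries of polyA RNA. The labels do not say whether the replicates were separate cultures, so the spread behind each p-value is that between these libraries and may be technical. Glut5 activity and steroid output were not part of the files.

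Totals ran from 59113 to 657251 counts per library, and the geometric mean was 2.14-fold higher in MSNBA (two-sided exact permutation p = 0.0606). Of 7 Leydig cell markers, Cyp11a1 among them, 7 were among the tested genes, with a summed level of 7490 to 10900 CPM (counts scaled to a common library total) in controls and 7569 to 9388 CPM in MSNBA. Macrophage markers summed to 0 to 59.5 CPM in controls and 10.6 to 17.4 CPM in MSNBA, and Sertoli cell markers to 59.5 to 110.0 CPM and 55.5 to 93.0 CPM. Germ cell markers summed to 26.0 to 135.3 CPM in controls and 27.4 to 71.6 CPM in MSNBA. Endothelial markers summed to 0 to 50.8 CPM and 0 to 12.2 CPM, and peritubular and fibroblast markers to 47.0 to 84.6 CPM and 16.7 to 69.7 CPM. Of the genes that mark the adrenal cortex, where Cyp11a1 is also used, Cyp11b2 had 0 counts and Cyp11b1 had 1 count over all 12 libraries, while Mrap, an accessory protein gene of melanocortin receptors, had 254 counts over the controls and 585 over MSNBA. The 6 adrenal genes summed to 234 to 464 CPM in controls and 325 to 482 CPM in MSNBA. Mrap held most of those counts. Akr1b7 had 7 and 38 counts, and Cyp21a1 and Mc2r had at most 2 in either group. Controls 2 and 4 stood apart in stress genes, described below with the values that move with them. In the table the columns stand in 3 runs of 4 libraries, of which the first holds controls 1, 3, 5 and 6, the second controls 2 and 4 with MSNBA 3 and 5, and the third MSNBA 1, 2, 4 and 6. The labels give 2 groups of 6 and name no other condition, and they set the groups here. What the 3 runs stand for is not given in the labels, so each comparison holds for the libraries as labelled.

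On the mm10 assembly, Cyp11a1 lies on the plus strand of chromosome 9 from 58006411 to 58027023, and its reference transcript has 9 exons and 2120 bases. Fdx1 lies on the minus strand of the same chromosome from 51943306 to 51963556, with 4 exons and 875 bases. Fdxr lies on the minus strand of chromosome 11 from 115268024 to 115277050, with 12 exons and 1948 bases. Cyp11a1 overlaps a long noncoding RNA gene, Gm17322, on the same strand, for which the table had no row. No annotated gene overlapped Fdx1 or Fdxr.

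The sequences before the annotated starts are shown to describe what stands before each of the 3 genes, whose products work as a chain. RefSeq gives Cyp11a1 an upstream start at 57998024 and a downstream start at 58014952, Fdx1 a start at 51963602 and Fdxr a start at 115276969, with GRCm38.p6 coordinates. The 250 bases before each of the 4 starts were searched on both strands for AGGTCA (the core of nuclear receptor sites, Nr5a1 sites among them), GGGCGG (a GC box), CCAAT (bound by factors such as NF-Y), TATAA (a core promoter element) and TGACG (part of a cAMP response element). Capitals mark the matches in the stretches printed here, which are chr9:57997774-57998023 and chr9:58014912-58014941 on the plus strand for Cyp11a1, chr9:51963603-51963852 on the minus strand for Fdx1 and chr11:115277102-115277219 on the minus strand for Fdxr.
Cyp11a1 before the upstream start: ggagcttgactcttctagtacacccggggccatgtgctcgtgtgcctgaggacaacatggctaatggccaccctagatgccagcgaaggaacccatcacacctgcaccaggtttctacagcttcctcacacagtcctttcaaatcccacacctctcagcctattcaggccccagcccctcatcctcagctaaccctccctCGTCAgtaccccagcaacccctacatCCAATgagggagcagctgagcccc
Cyp11a1 before the downstream start: gaggaaggggggAGGTCAccgctccatcag
Fdx1: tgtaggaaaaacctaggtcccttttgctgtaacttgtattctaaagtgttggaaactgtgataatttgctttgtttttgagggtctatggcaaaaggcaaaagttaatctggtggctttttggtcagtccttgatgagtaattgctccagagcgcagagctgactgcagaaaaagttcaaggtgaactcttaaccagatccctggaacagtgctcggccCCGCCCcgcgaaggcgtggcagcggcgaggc
Fdxr: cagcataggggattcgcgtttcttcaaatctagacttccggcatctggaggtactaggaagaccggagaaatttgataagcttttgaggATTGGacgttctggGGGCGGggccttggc

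AGGTCA was found only before the downstream start of Cyp11a1, beginning 28 bases before it, and 14% of all 32851 RefSeq windows of this length hold the motif. GGGCGG was found once before Fdx1, 3 times before Fdxr and not before Cyp11a1. Of the 3 before Fdxr, 2 lie inside an annotated transcript that starts farther upstream, and 1 lies outside and is shown. GGGCGG is held by 32.7% of all windows. CCAAT stood before the upstream start of Cyp11a1 and before Fdxr (33.8% of all windows), TGACG before the upstream start of Cyp11a1 (17.8%), and TATAA in none of the 4 windows (22.8%). A match is a description of letters and not a binding site. The downstream start of Cyp11a1 lies inside the first exon of its reference GENCODE transcript, which runs from 58014671 to 58015298 (the gene's start at 58006411 is that of another transcript), so only 30 bases around the match are shown, and the Fdxr stretch is limited to bases outside annotated transcripts.

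None of the 3 genes passed the threshold between MSNBA and control. Cyp11a1 had the lowest p of them, with a level in MSNBA of 0.867 times that in controls, while Fdx1 stood at 1.04 times and Fdxr at 0.925 times. By edgeR's quasi-likelihood test with Benjamini-Hochberg adjustment over all 2614 genes, 0 of 3 passed an adjusted p of 0.05, and 0 of 3 had an unadjusted p under 0.05. Over all tested genes 0% were called higher and 0.0765% lower at the adjusted threshold, and 4.17% were higher and 4.78% lower at the unadjusted level. DESeq2 and limma-voom likewise called 0 of 3, adjusted or unadjusted. The groups overlapped for each of the 3 genes, and 0.23% of tested genes were higher and 0.421% lower without overlap.

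Cyp11a1 measured from 2564 to 3129 normalized CPM in controls, with a median of 2801 (CPM of the tested genes, scaled by TMM factors). In MSNBA it measured from 1802 to 3036, with a median of 2470 normalized CPM. MSNBA 4, 6 and 2 lay below all controls, at 1802, 2110 and 2354 normalized CPM, while MSNBA 5, at 3036, lay above all controls but control 6. The means were 2817 ± 208 and 2433 ± 441 normalized CPM (SD, n = 6 per group), and the log2 fold change was -0.21 (SE 0.11, adjusted p = 0.566 by edgeR). The 95% interval of the fold ran from 0.749 to 1.005. The value ran from -0.28 without MSNBA 5 to -0.14 without MSNBA 4 when 1 library was left out. With library depth as a covariate it was -0.34 (SE 0.12, unadjusted p = 0.0051, adjusted p = 0.388 by edgeR). Without the low-count filter it was -0.05 (SE 0.12), a setting in which the median of the 2614 genes moved from -0.0082 to 0.14.

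Cyp11a1 was more spread in MSNBA than in controls, a difference that was not tested. Its coefficient of variation was 7.4% in controls, where counting error alone gives 7.1%, and 18.1% in MSNBA, where counting error alone gives 5.63%. Cyp11a1 took the smallest share of a library in MSNBA 4, at 0.141% of all counts (95% Clopper-Pearson interval 0.118% to 0.167%, counting error only). It took the largest share in control 6, at 0.251% (0.226% to 0.278%). These intervals are apart. They belong to the lowest and the highest of the 12 libraries, which are from different groups, so they do not test the spread within a group.

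Fdx1, the electron carrier, measured from 225 to 455 normalized CPM in controls with a median of 384, and from 312 to 420 in MSNBA with a median of 376. All 6 MSNBA libraries lay inside the control range. The means were 363 ± 78.3 and 374 ± 36.2 normalized CPM (SD, n = 6 per group). The log2 fold change was 0.06 (SE 0.16, edgeR adjusted p = 0.949), with a 95% interval from 0.834-fold to 1.3-fold. The lowest value, in control 4, rested on 14 counts, and without that library the log2 value was -0.028. The spread of Fdx1 was 21.6% in controls and 9.67% in MSNBA, where counting error alone gives 19.97% and 13.6%, so that differences among libraries of the same group were not detectable at this depth.

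Fdxr, the reductase at the head of the chain, measured from 182 to 328 normalized CPM in controls with a median of 310. In MSNBA it measured from 211 to 365 with a median of 241. Controls 2 and 4 had the lowest values of all libraries, 182 and 209 normalized CPM from 11 and 13 counts, and the other controls lay between 303 and 328. MSNBA 5 had the highest value of all, 365, and the other MSNBA libraries lay between 211 and 288. The means were 277 ± 64.3 and 261 ± 57.3 normalized CPM (SD, n = 6 per group). On the log2 scale Fdxr differed by -0.11 (SE 0.18, edgeR adjusted p = 0.899), with a 95% interval from 0.717-fold to 1.19-fold. Without controls 2 and 4 the value was -0.27 (SE 0.19, adjusted p = 0.712 by edgeR), and when 1 library was left out it ran from -0.22 without MSNBA 5 to -0.042 without MSNBA 3.

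**Figure D1:**
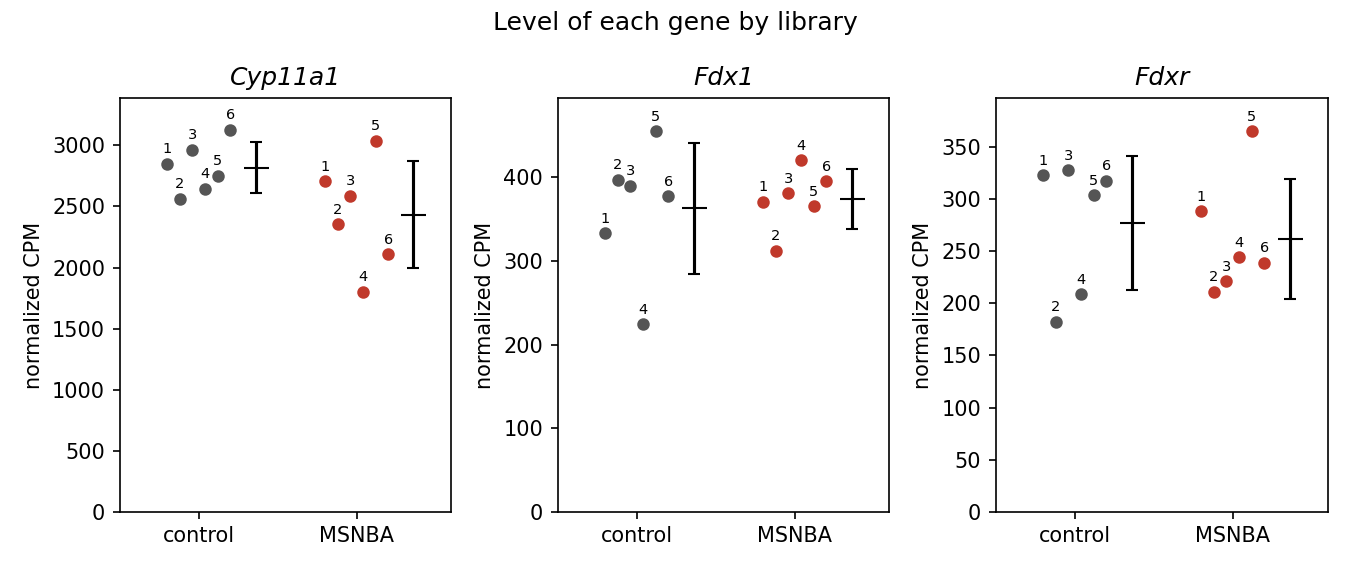
Level of Cyp11a1, Fdx1 and Fdxr in each library, in normalized CPM, with the replicate number beside each point and the mean with SD (n = 6) at the right of each group. The groups overlap for each gene. Control Cyp11a1 levels lie between 2564 and 3129, MSNBA levels between 1802 and 3036, and controls 2 and 4 have the lowest Fdxr levels.

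Read per kilobase of the reference transcript, mean levels in controls were 1329 CPM for Cyp11a1, 415 for Fdx1 and 142 for Fdxr, and in MSNBA 1148, 427 and 134. Cyp11a1 was highest in all 12 libraries. Dividing by length is right only if counts rise with transcript length, and counts of molecular identifiers may not. Without that division Fdx1 and Fdxr stood closer, and Fdxr exceeded Fdx1 in 0 of 12 libraries and equalled it in MSNBA 5, with 53 counts each.

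Ratios within a library need no scaling and ask whether the members moved apart. For every 100 Cyp11a1 counts there were 8.49 to 16.5 Fdx1 counts in controls, with a median of 12.6, and 12.02 to 23.3 in MSNBA, with a median of 14.2. MSNBA 4 and 6, the libraries with the lowest Cyp11a1, lay above all controls in this ratio. The mean log2 ratio of Fdx1 to Cyp11a1 was 0.29 higher in MSNBA (-2.96 ± 0.34 in controls and -2.68 ± 0.36 in MSNBA, SD, n = 6 per group, exact two-sided permutation test, p = 0.199, adjusted p = 0.48 over the 3 ratios). For Fdxr to Cyp11a1 there were 7.1 to 11.3 counts per 100 in controls and 8.56 to 13.5 in MSNBA, a log2 difference of 0.14 (exact p = 0.377, adjusted p = 0.48). For Fdxr to Fdx1 there were 45.8 to 96.8 counts per 100 in controls and 58.1 to 100.0 in MSNBA, a log2 difference of -0.15 (exact p = 0.48, adjusted p = 0.48). No ratio differed beyond the spread between libraries. The Fdxr to Cyp11a1 difference was -0.031 without controls 2 and 4.

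**Figure D2:**
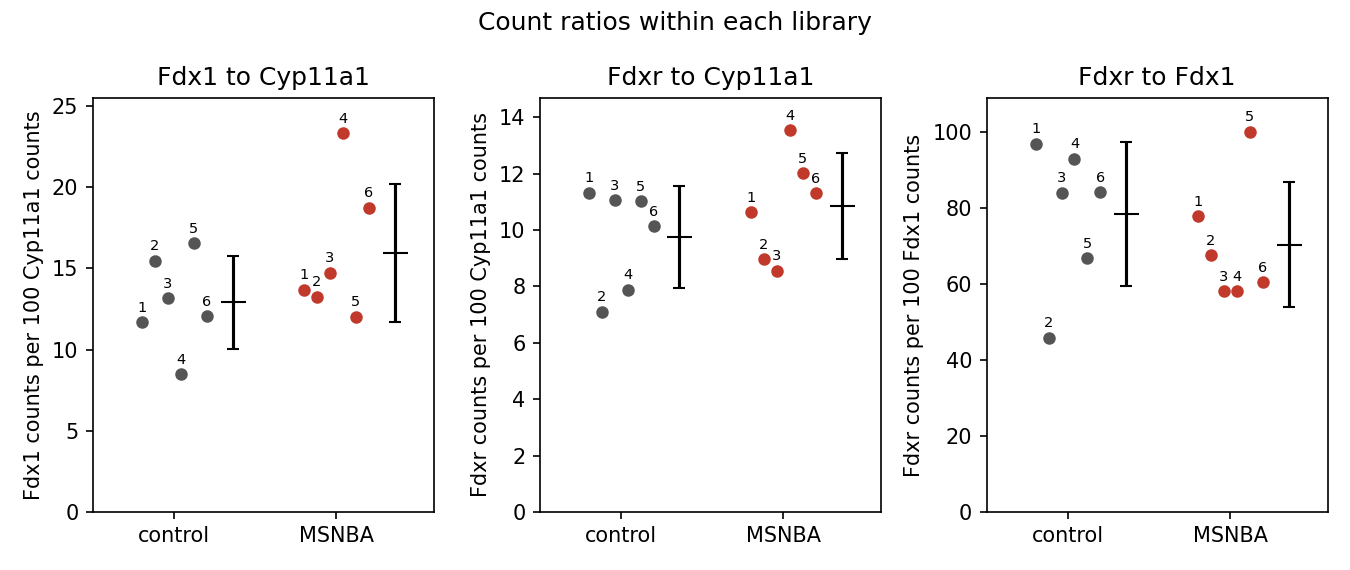
Counts of 1 gene per 100 counts of another within each library, with the replicate number beside each point and the mean with SD (n = 6) at the right of each group. MSNBA 4 has 23.3 Fdx1 counts per 100 Cyp11a1 counts, and control 2 has 45.8 Fdxr counts per 100 Fdx1 counts, the extremes of their panels.

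Across the 12 libraries Cyp11a1 and Fdxr were ordered alike by rank, while the linear correlation missed the threshold, and no correlation with Fdx1 passed. The Pearson correlation of log2 normalized CPM was 0.56 for Cyp11a1 and Fdxr (permutation p = 0.0556, adjusted p = 0.167 over 3 pairs), and Spearman's rho was 0.75 (permutation p = 0.0072, adjusted p = 0.0216). Within controls r was 0.84 and rho 0.83 (exact permutation p = 0.0333 and 0.0583, n = 6), and within MSNBA r was 0.60 and rho 0.49 (exact permutation p = 0.21 and 0.356, n = 6). Without MSNBA 4 and 6, the libraries farthest from the median Cyp11a1 level, r was 0.84 (permutation p = 0.0023, adjusted p = 0.0068). Without MSNBA 4 alone r was 0.70 (permutation p = 0.0143, adjusted p = 0.043). The rank relation missed the threshold when control 1, 3 or 5, or MSNBA 1 or 5, was left out (adjusted p from 0.0588 to 0.0862). As deviations from the group means, r was 0.59 and rho 0.58 (permutation p = 0.0436 and 0.0522, adjusted p = 0.131 and 0.157). With all libraries thinned to equal depth, r was 0.21 and rho 0.48 (permutation p = 0.536 and 0.116, adjusted p = 0.859 and 0.347).

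For Cyp11a1 and Fdx1, r was -0.14 and rho -0.26 (permutation p = 0.643 and 0.418, adjusted p = 0.643 and 0.627). For Fdx1 and Fdxr, r was 0.28 and rho 0.007 (permutation p = 0.403 and 0.992, adjusted p = 0.605 and 0.992). The sign of r turned without the farthest 2 libraries for both, to 0.27 and -0.30. Within controls r was 0.25 and 0.38 for these pairs, and within MSNBA it was -0.46 and 0.13 (lowest exact permutation p of r = 0.371, n = 6 per group). Ordered by their correlation with Cyp11a1 among 2613 genes, Fdxr stood at place 155 and Fdx1 at place 1654.

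**Figure D3:**
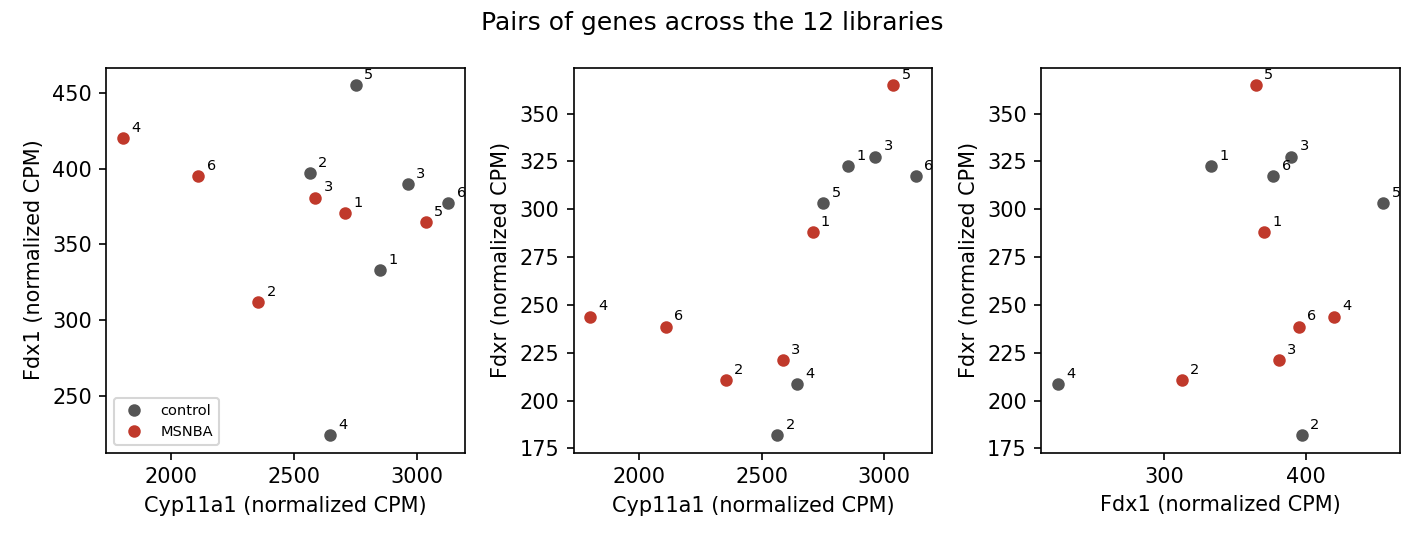
Normalized CPM of each pair of genes, with a point for each of the 12 libraries and its replicate number. Cyp11a1 and Fdxr lie along a rising band that MSNBA 4 and 6 leave at low Cyp11a1, whereas the panels with Fdx1 show no band (r = -0.14 with Cyp11a1 and 0.28 with Fdxr).

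Among tested genes with a mean of at least 50 counts, the 5 whose pattern over the 12 libraries was most like that of Cyp11a1 were Ptma, which encodes prothymosin alpha (r = 0.91), Cd81, a tetraspanin gene (0.86), Etfb, a subunit of the mitochondrial electron transfer flavoprotein (0.83), the tubulin gene Tuba1b (0.83) and Gpd1, a cytosolic glycerol phosphate dehydrogenase gene (0.82). The median r of the 633 genes compared was -0.057. For Fdxr the 5 nearest were the spliceosomal gene Snrpg (r = 0.82), the lysosomal protease gene Ctsl (0.81), Serpinb6a (0.77), Mgarp, which encodes a mitochondrial protein (0.76), and the histone gene H3f3b (0.73). For Fdx1 they were Vapa, which encodes an endoplasmic reticulum contact protein (r = 0.80), Abhd4 (0.73), Sh3bgrl3 (0.72), the protein kinase A catalytic subunit gene Prkaca (0.69) and Cops9 (0.68). Their rank correlations with Fdx1 were lower, from 0.23 to 0.52, against 0.69 to 0.85 for the nearest genes of Cyp11a1 and of Fdxr. All libraries share their scaling factors across genes, and these likenesses are descriptions.

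Across the 12 libraries, Cyp11a1 and Fdxr were lower where stress genes were higher, and the sign was the same within each group. A sum of 9 genes was taken as CPM of the library total. They were the stress factor gene Atf4 and genes that cells switch on through it (Ddit3, Asns, Trib3, Chac1, Sesn2, Atf3, Psat1 and Phgdh). This list was written after values of these data were known, so the p-values given with it describe these libraries and are no independent test. The sum measured 3479 CPM in control 2, 2369 CPM in control 4 and 917 to 1324 CPM in the other controls. In MSNBA it measured 1685 to 3137 CPM, with the highest value in MSNBA 6. Controls 2 and 4 also had the lowest Cyp11a1 and Fdxr levels of the controls, and they stand in another run of columns than the others. Relations within controls among the stress sum, Cyp11a1 and Fdxr therefore cannot be told apart from the run. For Fdxr, r with the log2 sum was -0.80 and rho -0.80 over the 12 libraries (permutation p = 0.0021 and 0.0027, adjusted p = 0.0064 and 0.0041 over the 3 genes). Within controls r was -0.97 and rho -0.83 (exact permutation p = 0.0069 and 0.0583, n = 6). Within MSNBA r was -0.61 and rho -0.49 (exact permutation p = 0.219 and 0.356, n = 6). Counted from the lowest r among 2614 genes, Fdxr stood at place 15, Cyp11a1 at place 103 and Fdx1 at place 986.

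For Cyp11a1, r with the stress sum was -0.65 and rho -0.85 (permutation p = 0.019 and 0.00096, adjusted p = 0.0285 and 0.0029). Within controls r was -0.82 and rho -0.89 (exact permutation p = 0.0486 and 0.0333, n = 6). Within MSNBA r was -0.75 and rho also -0.89 (exact permutation p = 0.0833 and 0.0333, n = 6). The highest Cyp11a1 level among MSNBA libraries was in MSNBA 5, which had the lowest stress sum of its group. Without controls 3 and 6, the libraries farthest from the median stress sum, r was -0.55 and rho -0.79 (permutation p = 0.097 and 0.0082), so with 10 libraries the linear relation missed the threshold and the rank relation passed. The linear relation also missed the adjusted threshold when control 1, 3 or 6, or MSNBA 6, was left out (adjusted p from 0.0515 to 0.081). Without controls 2 and 4, r was -0.76 for Cyp11a1 and -0.73 for Fdxr (permutation p = 0.0082 and 0.0197). In those 10 libraries the stress sum did not overlap between groups (917 to 1324 CPM in controls, 1685 to 3137 CPM in MSNBA). The permutation took no account of group, so these values cannot be told apart from the difference between groups.

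For Fdx1, r was -0.13 and rho 0.13 (permutation p = 0.699 and 0.683, adjusted p = 0.699 and 0.683). The correlation with log2 library total was 0.11 for Cyp11a1, -0.027 for Fdx1, 0.17 for Fdxr and 0.10 for the stress sum, with rho of 0.063, -0.42, 0.24 and -0.035 (permutation p = 0.739, 0.933, 0.601 and 0.754 for r, adjusted p = 0.933 for each, and 0.852, 0.178, 0.46 and 0.922 for rho). None passed, which does not show that depth had no part. The part of the stress genes in the levels of the chain was not tested. In bulk RNA, fewer cells of a type and less RNA per cell cannot be told apart.

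**Figure D4:**
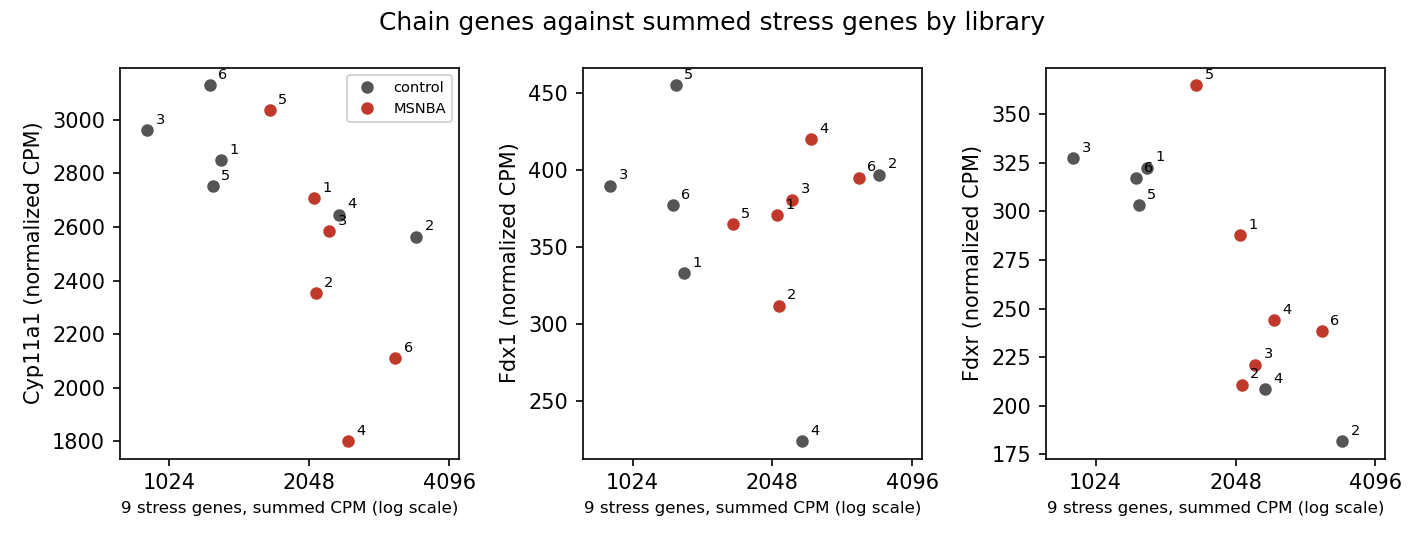
Normalized CPM of Cyp11a1, Fdx1 and Fdxr against the summed CPM of 9 stress genes (log axis), with a point for each of the 12 libraries and its replicate number. Cyp11a1 and Fdxr are lower where the stress sum is higher (rho = -0.85 and -0.80), and Fdx1 shows no such order (rho = 0.13).

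Around the chain, 8 lists of 107 symbols cover cholesterol delivery, later androgen steps, other mitochondrial P450 enzymes, the supply of iron-sulfur clusters, heme, NADPH and FAD, and regulators of Cyp11a1. Of these, 45 genes were tested, 0 passed the adjusted threshold by edgeR, and unadjusted p-values under 0.05 were found for 1 higher gene, Hspa9, and 1 lower gene, Cyb5r3. Over all 2614 tested genes, 4.17% were higher and 4.78% lower at that unadjusted level, so these lists do not stand out. The median log2 fold change of the 45 was -0.063, with 19 values above 0 and 26 below, against -0.0082 over all tested genes, where 48.5% lay above 0 and 51.5% below. DESeq2, run on 19576 genes, called 0 genes, with 394 at an unadjusted p under 0.05. On the 2614 filtered genes limma-voom also called 0, with 259 at that level.

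Iron-sulfur cluster assembly, which Fdx1 needs for its own cofactor, had 5 tested genes with a median log2 fold change of 0.19. The highest was Hspa9, a mitochondrial chaperone that takes part in cluster transfer and in protein import, at 563 ± 114 normalized CPM in controls and 740.1 ± 111 in MSNBA (SD, n = 6 per group). The difference on the log2 scale was 0.42 (SE 0.14), with an unadjusted edgeR p of 0.0043 and an adjusted p of 0.249. The lowest was Ndufab1, the mitochondrial acyl carrier protein, at -0.11 (SE 0.21). The other mitochondrial ferredoxin gene, Fdx2, whose product serves cluster assembly, had 25 counts over the controls and 60 over MSNBA, too few to pass the filter. Pooled over a group this was 36.8 CPM (95% Poisson interval 23.8 to 54.3, counting error only) and 37.5 CPM (28.7 to 48.3). Fdx1 measured 281 and 301 CPM on the same scale without division by length. MSNBA 1, the deepest library, held 36 of the 60 MSNBA counts of Fdx2. Taken library by library, the 6 control values of Fdx2 averaged 36.55 CPM with an SD of 22.26. The 6 MSNBA values averaged 29.04 CPM with an SD of 18.46, so the groups did not differ beyond that spread (two-sided exact permutation p = 0.528).

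Heme synthesis, which supplies the cofactor of Cyp11a1, had 9 tested genes with a median of -0.07. The highest was Ppox at 0.32 (SE 0.27) and the lowest Cpox at -0.35 (SE 0.29), which encode successive enzymes of the pathway, and Alas1, its rate-limiting enzyme outside red blood cells, measured -0.07 (SE 0.25). Mitochondrial NADPH supply, the source of electrons for Fdxr, had 6 tested genes with a median of -0.0995. Mthfd2, a folate enzyme, was highest at 0.20 (SE 0.21), Glud1, glutamate dehydrogenase, was lowest at -0.21 (SE 0.24), and the transhydrogenase gene Nnt measured -0.14 (SE 0.27). FAD supply had 1 tested gene, the riboflavin transporter gene Slc52a2, at -0.40 (SE 0.28).

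Cholesterol delivery had 12 tested genes with a median of -0.042, from Vdac3, an outer membrane channel gene, at 0.33 (SE 0.22) to Atad3a, an inner membrane ATPase gene, at -0.23 (SE 0.25). The later androgen steps and their electron donors had 7 tested genes with a median of -0.085. Cyb5b, the outer mitochondrial membrane cytochrome b5, was highest at 0.07 (SE 0.18). Cyb5r3, which encodes the reductase of cytochrome b5, was lowest, at 493 ± 45.2 normalized CPM in controls and 399 ± 50.3 in MSNBA (SD, n = 6 per group), or -0.32 on the log2 scale (SE 0.14), with an unadjusted edgeR p of 0.0312 and an adjusted p of 0.466. Por, which supplies electrons to the microsomal P450 enzymes as Fdxr and Fdx1 do in mitochondria, measured -0.085 (SE 0.18).

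Regulators of Cyp11a1 had 5 tested genes with a median of -0.11. Lhcgr, the luteinizing hormone receptor gene, was highest at 0.32 (SE 0.26), Sp1 was lowest at -0.19 (SE 0.26), and Nr5a1 lay between them at -0.15 (SE 0.11). Of the other mitochondrial P450 genes, which draw on the same electron chain, 0 of 5 passed the filter. Cyp11b1, Cyp11b2, Cyp27b1 and Cyp24a1 had at most 1 count over the controls and at most 5 over MSNBA. Cyp27a1, described below, had 4 and 35. Cyp11a1 was the mitochondrial P450 gene with the most counts among the 6.

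**Figure D5:**
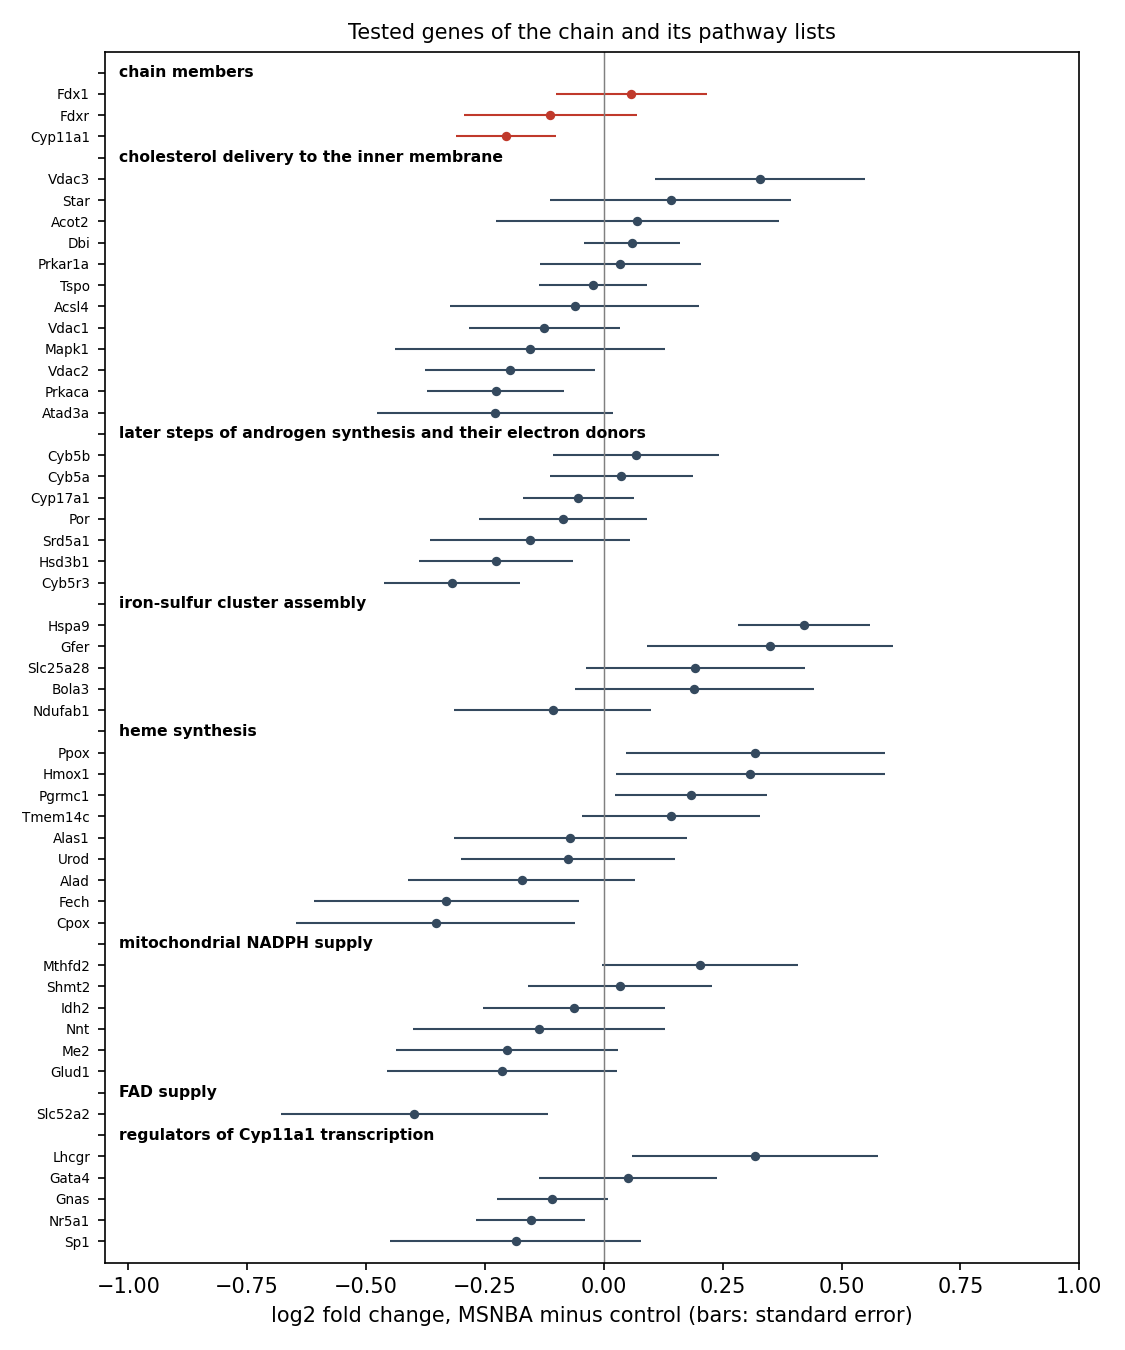
Log2 fold change, MSNBA minus control, of the 3 chain genes and of the 45 tested genes of their pathway lists, with bars for the standard error of edgeR's fit. Values run from -0.40 for Slc52a2 to 0.42 for Hspa9, and no gene passed the adjusted threshold.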

How the data were processed

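Raw counts per gene symbol and library were deposited by the authors in a table with no normalization. Per the submitters' processing notes, BWA 0.7.4.4 and the mm10 assembly were used. Sources used here do not name the counting program, its annotation or its strand setting. The table's name points to molecular identifiers on RefSeq genes, and the extract protocol in the labels names Nextera XT tagmentation. Groups came from the labels, whatever the order of the columns. Genes were filtered by filterByExpr, scaled by TMM and tested with edgeR 4.0.16 (robust quasi-likelihood F test, R 4.3.3) over 2614 genes holding 79.2% of counts. SE was taken as log2 fold change divided by root F. Log2 CPM carried a prior count of 2 and count ratios a pseudocount of 0.5; permutation tests were two-sided with 924 splits, all 720 orders within a group or 100000 resamples. Alternatives used limma 3.58.1, DESeq2 1.42.0 and sva 3.50.0.

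Members and lists were chosen with earlier results of these data known. Named genes are the members, the highest and lowest tested gene of each list, and the 5 nearest patterns per member; Alas1, Nnt, Por, Nr5a1 and Cyp27a1 were added after their values were seen. Gene positions and transcript lengths are from GENCODE M21 and promoters from RefSeq (3 of 3 symbols matched).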

Additional observations from a re-analysis of the deposited data

How the results depend on the processing

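No member passed the adjusted threshold in any alternative. The unadjusted edgeR p of Cyp11a1 depended on the setting. It was 0.0051 with depth as covariate, 0.019 with 1 surrogate variable, 0.027 without controls 2 and 4 and 0.038 with the replicate block. It was also under 0.05 without control 2, control 4, MSNBA 1 or MSNBA 5 (0.0145 to 0.0499), and above 0.05 in every other alternative. Cyp11a1 kept its sign in all alternatives, Fdx1 turned to -0.012 without controls 2 and 4, and Fdxr turned to 0.028 without the low-count filter. With 1 library left out, Cyp11a1 ran from -0.28 to -0.14, Fdx1 from -0.028 to 0.11 and Fdxr from -0.22 to -0.042. The ratio differences then ran from 0.17 to 0.37 (Fdx1 to Cyp11a1), 0.057 to 0.21 (Fdxr to Cyp11a1) and -0.29 to -0.0796 (Fdxr to Fdx1), and Fdxr to Cyp11a1 turned to -0.031 without controls 2 and 4. The correlations ran from -0.20 to 0.069 (without MSNBA 4) for Cyp11a1 and Fdx1, 0.49 to 0.70 (without MSNBA 4, adjusted p = 0.043) for Cyp11a1 and Fdxr, and 0.013 to 0.43 for Fdx1 and Fdxr. The Cyp11a1 and Fdxr correlation passed at 0.73 without controls 2 and 4 and at 0.84 without its farthest libraries, Cyp11a1 and Fdx1 turned to 0.27 without theirs, and Fdx1 and Fdxr to -0.30 without theirs and to -0.058 after thinning. Correlations with the stress sum, whose alternatives were chosen after seeing the data, ran from -0.74 to -0.59 for Cyp11a1, -0.87 to -0.74 for Fdxr and -0.23 to 0.032 (without control 4) for Fdx1. Cyp11a1 missed the threshold without control 1, 3 or 6 or MSNBA 6 and as deviations from group means (-0.55, adjusted p = 0.102), and Fdx1 turned to 0.040 after thinning.

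Over all genes, the reported 0 higher and 2 lower became 8 and 7 without the filter, 10 and 12 with 1 surrogate variable and 4 and 3 without controls 2 and 4. Lower calls were 0 by DESeq2, by limma-voom and with depth as covariate, and 1 with full library totals or the stricter filter. With 1 library left out, higher calls ran from 0 to 1 and lower calls from 0 to 5 (5 without control 1, 4 without MSNBA 4). With the replicate block, 0 were higher and 3 lower, and Cyp11a1 was -0.22, Fdx1 0.054 and Fdxr -0.14; the paired ratio differences were 0.29, 0.14 and -0.15 (exact sign-flip p from 0.406 to 0.563). Same-number libraries had residual correlations from -0.37 to 0.67, with 3 of 6 over 0.1, and 3 of 6 controls were nearest to their own number, so the numbers were not taken as pairs. The causes were not tested. Depth limits Fdx1 and Fdxr, with as few as 14 and 11 counts.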

Other observations

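Cyp27a1, a mitochondrial sterol hydroxylase gene that draws on the same ferredoxin, had 4 counts over the controls and 35 over MSNBA, and it was singled out after its values were seen. It was found in 3 of 6 controls and 5 of 6 MSNBA libraries, with 19 of the 35 MSNBA counts in MSNBA 1, the deepest library. Pooled over a group it measured 5.89 CPM (95% Poisson interval 1.6 to 15.1, counting error only) and 21.9 CPM (15.3 to 30.5). By library it measured 7.5 ± 13.2 CPM in controls, where control 5 had 33.8 CPM from 2 counts, and 17.1 ± 10.5 CPM with MSNBA (SD, n = 6 in each), a difference within the spread (exact two-sided permutation test, p = 0.186). In a fit of all 19576 genes with a count, its log2 fold change was 1.84 (SE 0.68, unadjusted p = 0.0071, adjusted p = 0.489 by edgeR).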
